A study of Homo sapiens with 6 samples.

Results

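The integrated stress response is a signalling route that cells use when amino acids, heme, protein folding in the endoplasmic reticulum (ER) or mitochondrial function fail. Kinases of the initiation factor eIF2 slow general translation, while the mRNA of ATF4 is translated better, because upstream reading frames in it otherwise keep ribosomes away from the coding sequence. ATF4 is a basic leucine zipper (bZIP) transcription factor, which binds DNA as a dimer with partners such as the C/EBP proteins and switches on genes for amino acid supply and, through DDIT3 (also called CHOP), for cell death.

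The 7 bZIP factors of this response were ATF4, ATF3, ATF5, DDIT3, CEBPB, CEBPG and JDP2. They were chosen by name for their place in the pathway, with earlier results of these data known, from 60651 gene identifiers in the counts. All 7 were among the 29086 genes that passed a filter of at least 10 counts in at least 3 libraries. RNA came from SK-N-AS, an established human neuroblastoma line without amplification of MYCN. The cells carry a tetracycline repressor and a MYCN gene that tetracycline releases, and all cultures were kept as single clones with G418 and blasticidin. The 3 control libraries are labelled ETOH and the 3 MYCN-induced libraries Tet, both at 120 h (5 days). No cells lacking the inducible MYCN gene but given tetracycline were analysed here, so effects of tetracycline and of MYCN cannot be told apart.

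The libraries were made from total RNA depleted of ribosomal RNA and held 64500589 to 102249336 counted read pairs. MYCN itself stood at 30.3, 35.5 and 32.4 CPM (counts relative to library size, with TMM normalization between libraries) in control replicates 1, 2 and 3 and at 211, 221 and 199 CPM in the induced ones. On the log2 scale induction raised it by 2.68 (SE, the standard error of that estimate, 0.08; adjusted p = 4.15e-05). Here and below, adjusted p-values are Benjamini-Hochberg values over all tested genes, from the quasi-likelihood test of edgeR unless another tool is named. On the first principal component MYCN-induced replicate 3 stood apart (69.1), since replicates 1 and 2 lay at 14.4 and 13.1 and the controls between -40.3 and -25.9. The fold change of each factor is therefore given with and without it. Of 11 adrenergic neuroblastoma markers all were detected, with HAND2 at 442 CPM in control cells, while TH, the first enzyme of catecholamine synthesis, was near 1.08 CPM. The summed level of these 11 markers was 1060 to 1420 CPM in control and 981 to 1170 CPM in induced libraries, and CHGA and CHGB among them were lower after induction. Of 7 mesenchymal markers, summing to 486 to 509 CPM in control and 547 to 575 CPM in induced libraries, CD44 had 0 counts and FN1 was lower. Markers of other cell types (7 genes, 71.5 to 80.5 CPM in control and 69.0 to 78.8 CPM in induced libraries) came mostly from KRT18, and MITF among them was higher. The part of these shifts in the results below was not tested.

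Short sequence motifs were looked up near the start sites of the 7 genes, to show which elements known from this pathway lie there. RefSeq promoter windows (GRCh38.p14, 250 bases before to 50 after a start, 16 windows for the 7 genes) were searched on both strands for TGATGNAA, the core of the C/EBP-ATF response element, for the E-box CACGTG, which MYC proteins bind, for the cyclic AMP response element TGACGTCA, and for the AP-1 site TGANTCA. The matches follow, 5′ to 3′ on the gene's strand, with the motif in capitals.
ATF4, E-box: ggaggagacggtCACGTGgtcgcggcggaa
ATF3, response element core: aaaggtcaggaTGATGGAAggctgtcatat
CEBPG, response element core: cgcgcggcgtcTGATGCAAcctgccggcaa
JDP2, response element core: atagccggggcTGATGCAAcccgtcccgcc
DDIT3, AP-1 site: gcgcgcgcgcaTGACTCAcccacctcctcc
ATF5, AP-1 site: ggagagtgctgTGACTCAtgctggactcta

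The response element core was found at 3 of the 7 genes and in 3.62% of all 35116 windows (4.46% of 27305 genes). The 7 genes had 2 or 3 windows each, more per gene than the genes at large. For each motif, counts of the 7 and shares of all genes are therefore not a like comparison. The CEBPG match (chr19:33374060-33374089, plus strand) lies at -42 from one of the gene's start sites, in an intron of other CEBPG transcripts. The JDP2 match (chr14:75427995-75428024, plus strand) lies at -16 from a start, in an intron of other JDP2 transcripts. The ATF3 match (chr1:212565205-212565234, plus strand) lies at -191 from a start and outside annotated genes. The start of the main annotated ATF3 transcript had no window, so it was not searched for any of the motifs. The E-box was found at ATF4 alone among the 7, and in 7.26% of all windows (8.77% of genes). Its site (chr22:39520465-39520494, plus strand), at -82 from a start, falls in a 5′ exon of longer ATF4 transcripts. AP-1 sites, in 7.71% of windows (9.37% of genes), were found at DDIT3 and ATF5. The DDIT3 site (chr12:57520737-57520766, minus strand) lies inside DDIT3 and MBD6 but in no exon. The ATF5 site (chr19:49928707-49928736, plus strand) lies in untranslated exons of ATF5 and of NUP62 on the opposite strand. The cyclic AMP response element was found in the windows of 0 of the 7 genes, and in 1.85% of all windows (2.25% of genes). CEBPB had no match to any of these motifs. A match is a description of the letters there and says nothing about binding.

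The comparison asked which of the 7 factors differed in mRNA level between MYCN-induced and control cells. All 7 had a fitted log2 fold change above 0, with a median of 1.0, against a median of 0 over all 29086 tested genes. For 6 of the 7 the 3 induced libraries lay above the 3 controls without overlap, which held for 26.3% of all tested genes in one direction or the other, and ATF3 was the exception. Only ATF4 passed an adjusted p-value of 0.05 in edgeR, so 1 of 7 rose, where 1.02% of all tested genes rose and 2.38% fell. The unadjusted edgeR p-value was under 0.05 for 6 of the 7, and for 5445 of all 29086 tested genes. DESeq2 called 6 of 7 higher, all but ATF3, where it called 3.11% of all genes higher. Without MYCN-induced replicate 3, edgeR called the same 6 higher, against 3.68% of all genes, and the median fell to 0.54. In RNA from whole cultures, a higher level in every cell and more cells with a high level cannot be told apart, nor can fewer cells of a type and less RNA per cell.

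**Figure D1:**
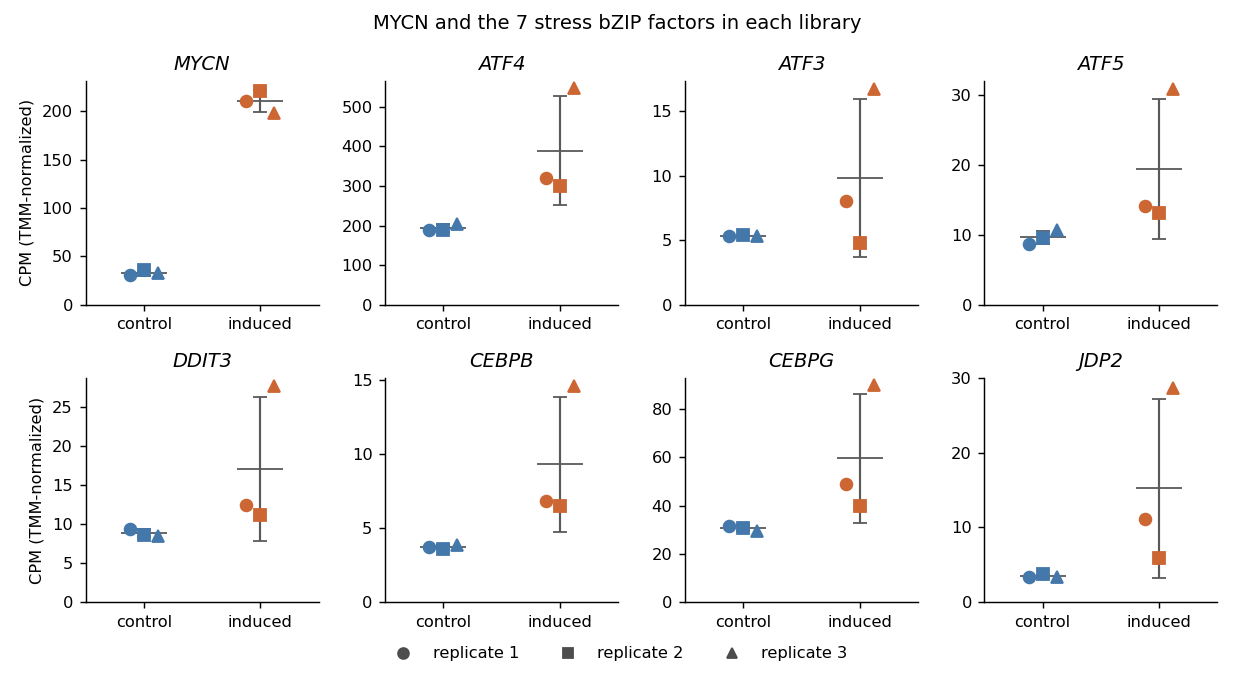
TMM-normalized CPM (y axes, from 0) of MYCN and the 7 factors in the 3 control and 3 MYCN-induced libraries; point shapes mark the replicate, and the bar and whiskers show mean and SD. Induced replicate 3 is the highest library for each of the 7 factors, with ATF4 at 547 CPM, whereas for MYCN it is the lowest of the induced libraries at 199 CPM.

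ATF4 (ENSG00000128272.16, chromosome 22 from 39519695 to 39522683, plus strand, GRCh38) encodes the factor at the head of the transcriptional response. Its mRNA stood at 189, 189 and 204 CPM in control replicates 1, 2 and 3 and at 319, 300 and 547 CPM in the induced ones. The groups did not overlap, and the lowest induced library was well above the highest control. ATF4 rose by 1.0 on the log2 scale (SE 0.21, edgeR adjusted p = 0.0475), or 2.01-fold. The call was lost without control replicate 1 (adjusted p = 0.165), 2 (0.212) or 3 (0.154) or without MYCN-induced replicate 1 (0.0868), and with limma-voom (0.0569) or a filter of 100 counts in every library (0.0648). Without MYCN-induced replicate 3 it held, at a smaller log2 fold change of 0.68 (edgeR adjusted p = 0.00298). No exon base of ATF4 is shared with another gene in the authors' annotation.

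JDP2 (ENSG00000140044.13, chromosome 14 from 75427716 to 75474111, plus strand), a repressor that binds AP-1 and cyclic AMP response elements, had the largest fold change of the 7. It went from 3.30, 3.68 and 3.38 CPM in the controls to 11.1, 5.87 and 28.8 CPM in induced replicates 1, 2 and 3. The groups did not overlap, but the induced values spread 4.90-fold between replicates 3 and 2. JDP2 differed by 2.14 on the log2 scale (SE 0.51, edgeR adjusted p = 0.0685), and 1.30 without MYCN-induced replicate 3 (adjusted p = 0.0266). DESeq2 gave 2.16 with an adjusted p of 0.0195. JDP2-AS1 on the opposite strand shares only 26 exon bases (0.4%) with it.

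CEBPB (ENSG00000172216.6, chromosome 20 from 50190830 to 50192668, plus strand), a C/EBP factor of inflammation and differentiation that pairs with ATF4 and DDIT3, consists of a single exon. Its levels were 3.72, 3.56 and 3.87 CPM in control and 6.83, 6.52 and 14.6 CPM in induced replicates 1, 2 and 3. Replicates 1 and 2 were close to each other and both above all controls. The log2 fold change of 1.33 (SE 0.30) missed the threshold (edgeR adjusted p = 0.0587), and DESeq2 gave 1.34 with an adjusted p of 0.000289. Without MYCN-induced replicate 3 it was 0.85 (edgeR adjusted p = 0.00491). The antisense gene CEBPB-AS1, which overlaps 12.6% of the exon bases on the opposite strand, stood at 1.24 CPM ± 0.227 in the 3 controls and at 1.48 CPM ± 0.630 in the 3 induced libraries (SD).

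CEBPG (ENSG00000153879.9, chromosome 19 from 33373685 to 33382686, plus strand) encodes a small C/EBP protein that lacks an activation domain and acts as a dimer partner, ATF4 included. It was measured at 31.7, 30.8 and 29.5 CPM in the controls and at 49.1, 39.8 and 89.9 CPM in induced replicates 1, 2 and 3. Every induced library exceeded every control. The estimated log2 change of CEBPG was 0.96 (SE 0.27, edgeR adjusted p = 0.103; 0.00754 from DESeq2). Without MYCN-induced replicate 3 the fold change was 0.54 (edgeR adjusted p = 0.0192).

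DDIT3 (ENSG00000175197.12, chromosome 12 from 57516588 to 57521737, minus strand) encodes CHOP, a C/EBP family member tied to cell death under lasting stress. It stood at 9.35, 8.56 and 8.43 CPM in control and at 12.4, 11.2 and 27.7 CPM in induced replicates 1, 2 and 3. Induced replicates 1 and 2 were only slightly above the controls, and replicate 3 was 2.24-fold above replicate 1. DDIT3 differed by 0.96 in log2 (SE 0.32, edgeR adjusted p = 0.162), 0.98 in DESeq2 (adjusted p = 0.0294), and 0.43 without MYCN-induced replicate 3 (edgeR adjusted p = 0.0335). Of its exon bases, 39.6% are shared with other genes, 27.2% with MARS1 on the opposite strand, and the counting as deposited set no strand option. MARS1, a methionyl-tRNA synthetase, was at 178, 178 and 172 CPM in control and 223, 181 and 256 CPM in induced libraries, so the order of its induced libraries was also 3, 1, 2. Its log2 fold change was 0.32, and how far its reads add to the DDIT3 counts was not tested.

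ATF5 (ENSG00000169136.12, chromosome 19 from 49928702 to 49933935, plus strand), whose mRNA is translated under eIF2 phosphorylation like that of ATF4 and which is known for the mitochondrial stress response, had 8.72, 9.57 and 10.6 CPM in control and 14.1, 13.2 and 30.9 CPM in induced replicates 1, 2 and 3. The groups did not overlap. For ATF5 the log2 difference was 1.01 (SE 0.31, edgeR adjusted p = 0.132; 0.0149 from DESeq2), and 0.51 without MYCN-induced replicate 3 (edgeR adjusted p = 0.0374). NUP62 on the opposite strand covers 19.5% of its exon bases and had 83.9 CPM ± 9.19 in the 3 controls and 103 CPM ± 12.6 in the 3 induced libraries (SD), with its lowest induced value, 88.3 CPM, in replicate 3.

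ATF3 (ENSG00000162772.17, chromosome 1 from 212565334 to 212620777, plus strand), an immediate-early repressor and target of ATF4, was the member whose groups overlapped. The controls were tight, at 5.36, 5.41 and 5.30 CPM, and the induced libraries held 8.01, 4.80 and 16.7 CPM in replicates 1, 2 and 3. Induced replicate 2 lay below all controls. The log2 fold change of 0.88 (SE 0.39, edgeR adjusted p = 0.277; 0.129 from DESeq2) did not exceed the spread between libraries, and it was 0.26 without MYCN-induced replicate 3 (edgeR adjusted p = 0.474).

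Induced libraries spread more widely than controls for all 7 factors. The coefficient of variation over the 3 controls ran from 1.11% (ATF3) to 9.94% (ATF5), and over the 3 induced libraries from 35.3% (ATF4) to 78.7% (JDP2). Counting error was small beside the induced spread. The lowest count of any of the 7 in a library was 316 (CEBPB in control replicate 2), a counting coefficient of variation of 5.63%. Beside the control spread it was not small for every factor. At the lowest count it exceeded that spread for ATF3 (4.73% against 1.11%) and CEBPB (5.63% against 4.05%), and came close for JDP2 (5.54% against 5.8%). The order replicate 3, then 1, then 2 was found for 7 of 7 factors, and for 22.7% of all tested genes. Among the 224 genes whose fold change was at least that of ATF3 and whose mean reached 1 CPM, it was found for 60.7%, so this order is common among the genes with such fold changes. As log2 differences from the mean of the controls, the median of the 7 was 0.68, 0.46 and 1.65 in induced replicates 1, 2 and 3. MYCN did not follow this order, with 211, 221 and 199 CPM.

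**Figure D2:**
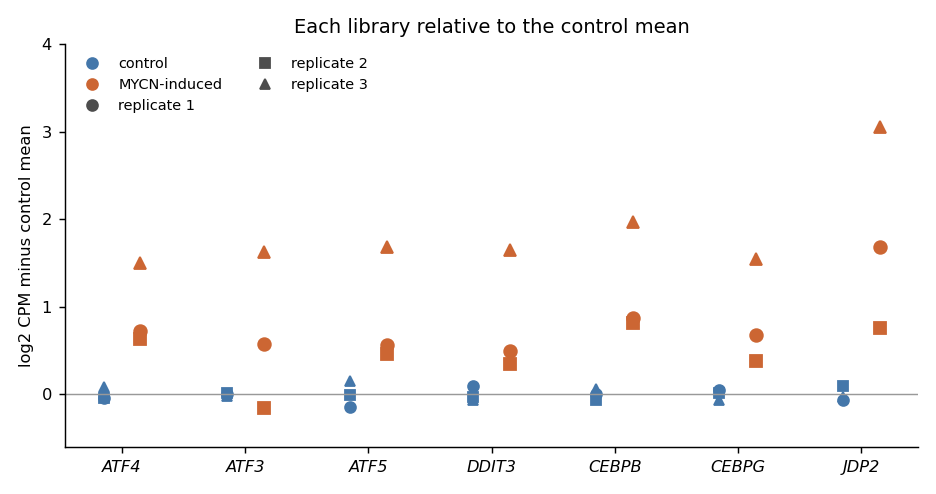
Log2 CPM (prior count 2) of each factor minus the mean of the 3 controls, for every library; blue points are control and orange points MYCN-induced libraries, with shapes for the replicate. JDP2 reaches 3.05 in induced replicate 3, and ATF3 in induced replicate 2, at -0.16, is the only induced point below 0.

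Levels of different genes were compared per exon length, as TPM, the share of a library's length-corrected counts, computed here. ATF4 was by far the most abundant of the 7, at 122 ± 3.65 TPM in control and 238 ± 51.5 TPM in induced cells (SD, n = 3 each). In control cells CEBPG (12.4 TPM) and DDIT3 (11.1 TPM) followed and overlapped in their libraries, and then came ATF5 (5.45), CEBPB (3.31), ATF3 (2.18) and JDP2 (0.905), without overlap between these neighbours. In induced cells the order by mean was the same, with 23.3 TPM for CEBPG, 20.5 for DDIT3, 10.6 for ATF5, 8.01 for CEBPB, 3.79 for ATF3 and 3.74 for JDP2. There CEBPG overlapped DDIT3, ATF5 overlapped CEBPB, and ATF3 overlapped JDP2. Within each library, CEBPG exceeded DDIT3 in 3 of 3 control and 3 of 3 induced libraries. DDIT3 and ATF5 share 39.6% and 22.1% of their exon bases with other genes, while CEBPG and ATF4 share 0. The counting as deposited set no strand option, and how far this moves the levels of DDIT3 and ATF5 was not tested. ATF5 exceeded CEBPB in 3 of 3 induced libraries, and ATF3 exceeded JDP2 in 2 of 3. The induced level of JDP2 was 2.35 TPM without MYCN-induced replicate 3.

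**Figure D3:**
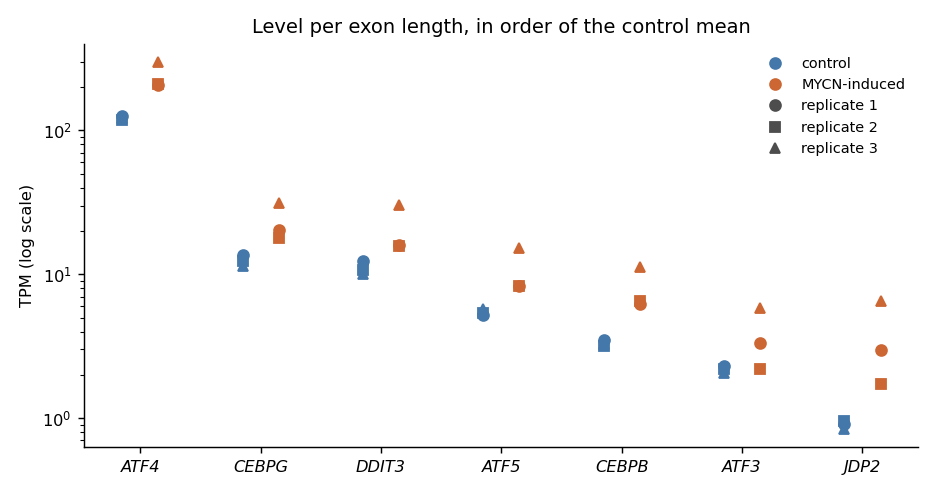
TPM of the 7 factors (log axis) in each library, ordered by the control mean; blue is control, orange is MYCN-induced, and shapes mark the replicate. ATF4 lies at 118 to 297 TPM in all libraries, and the gap between ATF3 and JDP2 in control cells is gone in induced cells.

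Ratios to ATF4 within a library do not depend on scaling between libraries. The log2 ratio of JDP2 to ATF4 was -7.10, -6.94 and -7.17 in the controls and -6.11, -6.94 and -5.51 in induced replicates 1, 2 and 3, a difference of 0.89. Induced replicate 2 thus had, to the 2 decimals given, the same ratio as control replicate 2. The log2 ratio of CEBPB to ATF4 was -5.16, -5.22 and -5.22 in control and -5.04, -5.02 and -4.72 in induced libraries, a difference of 0.27 without overlap. Without MYCN-induced replicate 3 the differences were 0.55 for JDP2 and 0.17 for CEBPB, and with 1 added to each TPM they were 0.25 and 0.08. For both, as reported, the two-sided exact permutation p was 0.1, the smallest this design allows (adjusted 0.3 over 6 ratios). The ratios of ATF3 (-0.26), ATF5 (-0.05), DDIT3 (-0.12) and CEBPG (-0.08) had differences smaller than the SD of the induced libraries, which ran from 0.16 to 0.48 for these genes. These 4 differences were -0.47, -0.17, -0.26 and -0.15 without MYCN-induced replicate 3.

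**Figure D4:**
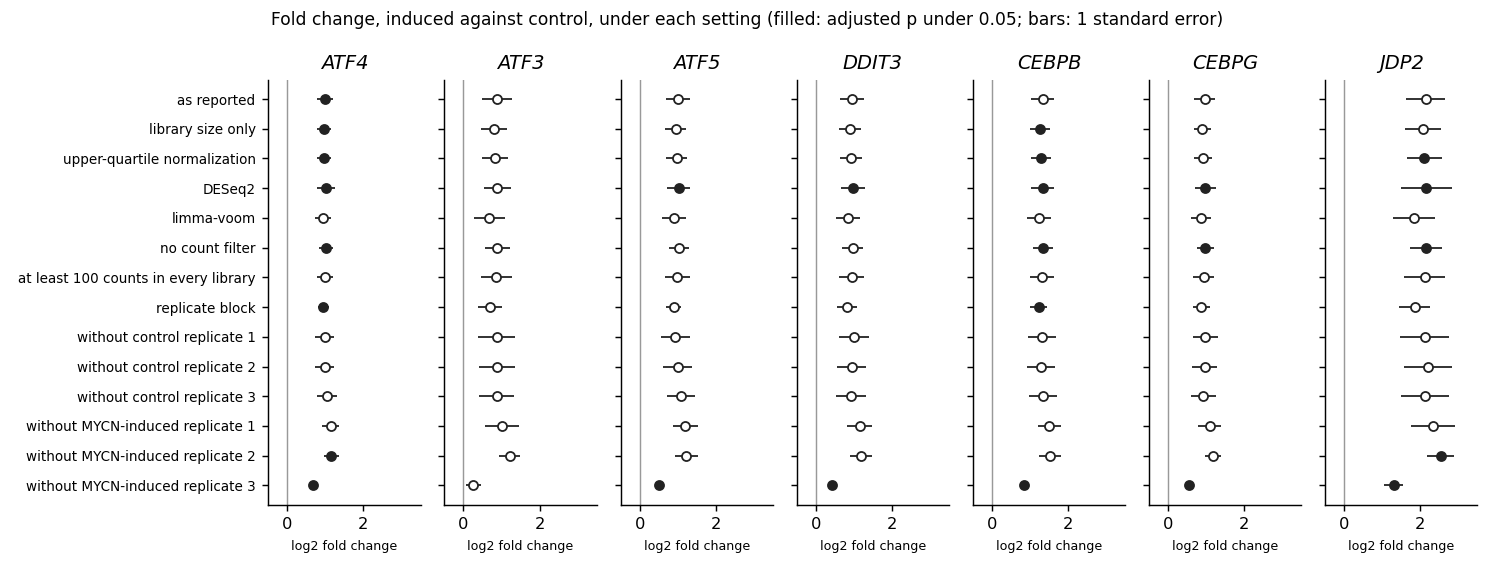
Log2 fold change of each factor, induced against control (x axes, bars 1 standard error), as reported and under 13 other settings (rows); filled points have an adjusted p under 0.05. All values are above 0. The row without MYCN-induced replicate 3 has the smallest fold change for each factor, from 0.26 for ATF3 to 1.30 for JDP2.

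The genes with profiles nearest to ATF4 and DDIT3 were sought among all tested genes with a mean of at least 5 CPM, by the Euclidean distance of log2 CPM relative to the control mean over the 6 libraries. Nearest to ATF4 were GBP2, a guanylate-binding protein (distance 0.176, Pearson r = 0.992), the arylsulfatase ARSG (0.179, r = 0.997) and PMAIP1, a pro-apoptotic BCL2 family member (0.220, r = 0.993). Nearest to DDIT3 were XBP1 (0.211, r = 0.990), ENSG00000285572 (0.212, r = 0.995) and PSPH, the last enzyme of serine synthesis (0.218, r = 0.994). XBP1, a bZIP factor of the ER stress response, had 56.4, 53.2 and 51.1 CPM in control and 80.7, 59.9 and 172 CPM in induced replicates 1, 2 and 3. The points share their libraries and fall into separate groups, so these values describe likeness only.

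The other bZIP genes give the family background. Of 46 listed, 40 were tested and edgeR called 0. Before adjustment 9 of the 40 were below 0.05, as were 5445 of all 29086 tested genes. DESeq2 called 2 higher, where it called 3.11% of all genes higher. Above 0 were 30 of the 40, against 14524 of all 29086, and the median log2 fold change of the 40 was 0.14. The largest was FOSL1, an AP-1 subunit, at 9.49, 11.0 and 9.96 CPM in control and 16.5, 15.4 and 36.9 CPM in induced libraries (1.18, edgeR adjusted p = 0.0963). JUNB, another AP-1 subunit, had 1.10 (adjusted p = 0.237) and XBP1 0.96 (adjusted p = 0.182). The C/EBP genes CEBPA and CEBPD were low, at 2.20 CPM or less in every library, with log2 fold changes of 0.02 and 0.58 (edgeR adjusted p = 0.962 and 0.18). ATF6, the ER membrane-bound relative, was at 0.23 (edgeR adjusted p = 0.282).

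Upstream of ATF4, 11 genes of eIF2 signalling were tested, with a median log2 fold change of 0.07. EIF2AK3 (PERK, the ER-stress eIF2 kinase) fell, from 19.9, 18.9 and 17.8 CPM in control to 12.4, 13.8 and 11.8 CPM in induced replicates 1, 2 and 3 (log2 fold change -0.57, SE 0.10, edgeR adjusted p = 0.0241). In edgeR it was the only gene of the list called, with 0 higher, where 2.38% of all tested genes fell and 1.02% rose. DESeq2 called 2 higher (3.11% of all genes), as did edgeR without MYCN-induced replicate 3 (3.68% of all genes). No gene of the list was called lower without any one of the 3 controls or without MYCN-induced replicate 1. In these settings 72 to 216 of all genes were called lower, against 692 as reported. The other kinases EIF2AK1 (0.05), EIF2AK2 (0.07) and EIF2AK4 (-0.05) had adjusted p-values of 0.652 to 0.748 from edgeR. The phosphatase subunit PPP1R15A (GADD34), itself a target of ATF4, had 43.2, 46.7 and 45.3 CPM in control and 48.6, 45.9 and 91.0 CPM in induced libraries (0.46, adjusted p = 0.364), so only replicate 3 was high. PPP1R15B had 0.37 (adjusted p = 0.0937) and EIF2S1, the eIF2 alpha subunit, 0.22 (edgeR adjusted p = 0.098).

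Downstream, 35 described targets of ATF4 and DDIT3 were listed with results of these data known. Of the 32 tested, 31 were above 0, against 14524 of all 29086 tested genes, and the median log2 fold change was 1.40. In the list 6 rose and 0 fell, where 1.02% of all tested genes rose and 2.38% fell. The 6 were SLC7A11, the cystine transporter (3.52, adjusted p = 0.0494), PHGDH, the first enzyme of serine synthesis (2.09, 0.0482), MTHFD2 of mitochondrial folate metabolism (1.70, 0.0278), the arginine transporter SLC7A1 (1.44, 0.0388), the tRNA exporter XPOT (0.67, 0.0282) and CBS of cysteine synthesis (0.60, 0.036; all edgeR). Without any one of the 3 controls or without MYCN-induced replicate 1, 0 of the list were called higher. In these settings 18 to 73 of all genes were called higher, against 298 as reported. Without MYCN-induced replicate 2, 11 of the list were called higher, beside 169 of all genes. Without MYCN-induced replicate 3, 17 were, beside 1060 of all genes. The largest fold changes that missed the threshold were those of NUPR1 (4.44, adjusted p = 0.102), CHAC1 (3.52, 0.079) and GDF15 (3.25, 0.199; all edgeR). CHAC1, which degrades glutathione, had 1.88, 2.06 and 2.47 CPM in control and 10.9, 4.16 and 58.4 CPM in induced replicates 1, 2 and 3, the same order as the 7 factors with a wider spread. GDF15 was high only in induced replicate 3, at 14.2 CPM against 0.411 to 0.661 CPM in the other libraries. NUPR1 was very low in the controls, at 0.115, 0.135 and 0.197 CPM, and had 0.85, 0.34 and 8.56 CPM in induced replicates 1, 2 and 3. Its large fold change thus starts from a very low level and leans on replicate 3.

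Genes of neighbouring stress programs were listed too. Of 16 genes of the ER unfolded protein response, 0 were called by edgeR. Before adjustment 4 of the 16 were below 0.05, against 5445 of all 29086 tested genes. DESeq2 called 1 higher, where it called 3.11% of all genes higher. The median log2 fold change of the 16 was 0.12. By edgeR, HERPUD1 was at 1.15 (adjusted p = 0.159), EDEM1 at 0.74 (0.23) and DNAJB9 at 0.42 (0.115). HSPA5, the main ER chaperone, was at 0.03. All 9 mitochondrial chaperones and proteases were above 0, with a median of 0.36, where 14524 of all 29086 tested genes were above 0. HSPA9 (0.51, adjusted p = 0.0173) and TRAP1 (0.38, 0.0303) rose in edgeR, as did 1.02% of all tested genes. HSPA9 was at 377, 373 and 372 CPM in control and 489, 528 and 584 CPM in induced libraries. LONP1 (0.73, adjusted p = 0.132), CLPP (0.43, 0.447) and DNAJA3 (0.36, 0.0743) did not pass. Without any one of the 3 controls 0 of these 9 genes were called higher, beside 18 to 46 of all genes. Without MYCN-induced replicate 1 or 2 there was 1, beside 73 or 169 of all genes. DESeq2 called 4 (904 of all genes), as did edgeR without MYCN-induced replicate 3 (1060 of all genes). Differences between the lists were not tested.

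**Figure D5:**
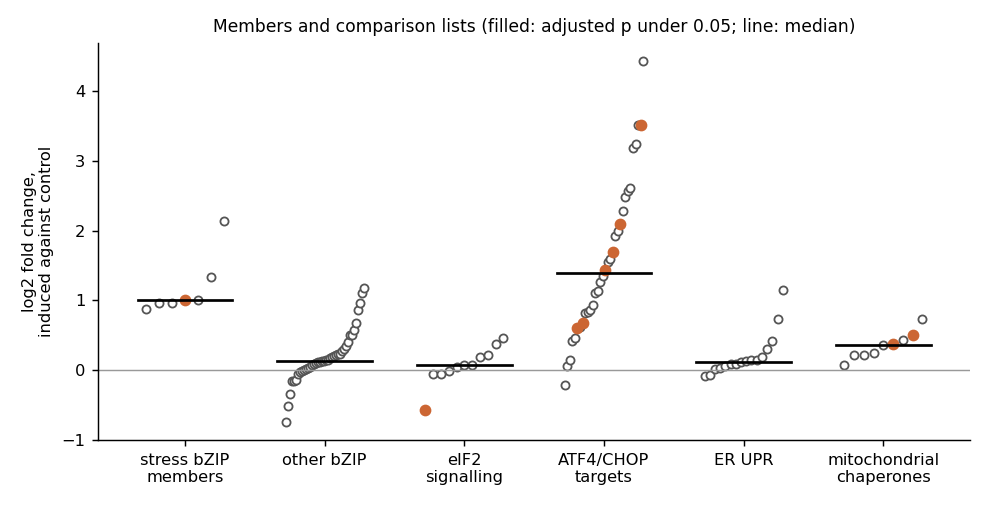
Log2 fold change (y axis) of each tested gene in the 7 stress bZIP factors and 5 comparison lists; filled points have an adjusted p under 0.05 from edgeR and lines are medians. The medians are 1.0 for the 7 factors, 1.40 for the ATF4 and DDIT3 targets, and 0.07 to 0.36 for the other lists.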

How the data were processed

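Per the file headers, the authors counted read pairs over exons with featureCounts 1.6.4 on unique STAR alignments, gave each of several overlapping genes an equal share of a pair, and used no setting for strand; the deposited values are estimated counts. The submitters' processing notes name featureCounts 1.5.1, STAR 2.7.1a and GRCh38, and the methods list a strand option. Symbols came from GENCODE release 44 (99.65% of identifiers matched), and 92 spike-in rows had 0 counts.

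Counts were rounded and tested with edgeR 4.0.16 in R 4.3.3 (TMM, quasi-likelihood, no block, adjusted over all tested genes). The standard error is the log2 fold change divided by the square root of F. DESeq2 1.42.0 (the study's tool) and limma 3.58.1 (voom) were alternatives. The fit was tested on simulated data. Replicates differed by more than sampling noise (chi-square per gene 11.2 to 135.9) and the study describes them as 3 independent experiments. Members, gene lists and motifs were chosen with earlier results of these data known. Named were the 7 factors, up to 8 genes a list past the threshold plus up to 3 with the largest fold change at a mean of 1 CPM or more, and for ATF4 and other factors past the threshold, and DDIT3, the 3 nearest profiles. HSPA5, CEBPA, CEBPD, ATF6, the other eIF2 kinases and overlapping genes were added for background after their values were seen. Some marker genes are not reported here by name.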

Additional observations from a re-analysis of the deposited data

How the results depend on the processing

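MYCN was called under all 13 alternatives, and no fold change of the 7 factors changed sign. As reported 1 factor was called higher, beside 298 of all tested genes. The number of factors was 2 with library size only (239 of all genes), 3 with upper-quartile normalization (267) and 6 with DESeq2 (904). It was 0 with limma-voom (263), 4 without a count filter (470) and 0 with at least 100 counts in every library (227). When 1 library was left out it was 0 to 6 (18 to 1060 of all genes). ATF3 was called under none. Some calls not made as reported were made with all 6 libraries and no block. CEBPB was called with library size only (1.27), upper-quartile normalization (1.29), DESeq2 (1.34) and no filter (1.34). JDP2 was called with upper-quartile normalization (2.10), DESeq2 (2.16) and no filter (2.16). CEBPG was called with DESeq2 and no filter (0.98 in both), and ATF5 (1.03) and DDIT3 (0.98) with DESeq2. Without MYCN-induced replicate 2, JDP2 was called too (2.53, edgeR adjusted p = 0.0316). The call of ATF4 was lost with limma-voom (0.95) and the stricter filter (0.99); the cause was not tested. When 1 library was left out, the log2 fold change ran from 0.68 to 1.16 for ATF4, 0.26 to 1.21 for ATF3, 0.51 to 1.23 for ATF5, 0.43 to 1.19 for DDIT3, 0.85 to 1.53 for CEBPB, 0.54 to 1.18 for CEBPG and 1.30 to 2.53 for JDP2.

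With the replicate block 2 factors were called higher, ATF4 (0.95) and CEBPB (1.23), beside 265 of all tested genes. Same-numbered libraries deviated from their group means with correlations of 0.22, -0.02 and 0.07 across genes, and not every library correlated best with its own number, so the numbers were not taken as pairs.

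Over all genes 298 were higher and 692 lower, against 904 and 1199 with DESeq2, 470 and 811 without a filter, 227 and 404 with the stricter filter, and 18 to 1060 and 72 to 1279 when 1 library was left out. Of the ATF4 and DDIT3 targets, 6 as reported, 16 were called with DESeq2, 19 without a filter and 3 with limma-voom or the stricter filter. With TPM + 1 the difference in ratio to ATF4 was 0.08 for CEBPB, 0.25 for JDP2 and -0.42 for ATF3, and control levels were, by construction, 1 higher, at 3.18 (ATF3), 6.45 (ATF5), 4.31 (CEBPB) and 1.90 (JDP2). Per kilobase of TMM-scaled counts, JDP2 and ATF3 changed places in induced cells. Ranked by Pearson correlation, the nearest genes were others (DNAJB9, CEBPB and CFAP36 for ATF4).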

Other observations

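Among the described targets of ATF4 and DDIT3, FGF21 and ADM2, which encode secreted peptides, were too low in most libraries to be tested. FGF21 had 1, 1 and 1 counts in the controls and 6, 4 and 328 counts in induced replicates 1, 2 and 3. ADM2 had 0, 2 and 2 counts in the controls and 9, 7 and 133 counts in the induced libraries. Both were chosen here after their values were seen. In both, induced replicate 3 was the highest library, as for the 7 factors. The counts in induced replicates 1 and 2 were too few and too close to order them. PSAT1, another target on the list, had 3 to 22 counts in control and 2 to 3 counts in induced libraries.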
